A study of Homo sapiens with 14 samples.

Results

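The genes described here write or erase acetylation of lysine 16 of histone H4 (H4K16ac), and their RNA was compared between SETD2 knockout and wild type HEK293T cells. They were chosen by name and position: 7 listed transcripts, for KAT8, MSL1, MSL2, MSL3, KANSL1, SIRT1 and SIRT2, and all rows whose hg19 locus holds a fixed point inside each gene. The rule found 96 transcripts at 7 loci, of 204092 transcripts at 35671 loci in all. The listed transcript of each gene is called the listed transcript below, and the others are given by their Ensembl ID, because neither the files nor the gene tables used here tie an ID to a gene.

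KAT8, also known as MOF, is the acetyltransferase that places most acetyl groups on lysine 16 of histone H4, and it works inside separate protein complexes. In the MSL complex MSL1 is the scaffold, MSL2 a RING-type ubiquitin ligase and MSL3 a subunit with a chromodomain, which in Drosophila binds nucleosomes that carry H3K36me3, the mark that SETD2 places. KANSL1 is the scaffold of the second complex, NSL, which acts at promoters. SIRT1, mainly nuclear, and SIRT2, mainly cytoplasmic, are NAD-dependent deacetylases that can remove the mark, and SIRT2 does so around mitosis.

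The knockout group was HEK293T cells, a human embryonic kidney line, with SETD2 knocked out, and it was set against the same line with wild type SETD2. Each had 3 libraries of RNA depleted of ribosomal RNA, and the label of 1 wild type library carried a ChIP protocol instead. The labels give no clone, no guide and no separate cultures, so any spread between libraries behind the deposited p-values may be technical. The 8 ChIP samples for H3K36me3 and H4K16ac and the RNA of SETD2 itself were not analysed here. The files hold 1 FPKM value (fragments scaled to transcript length and to the mapped fragments of the library) for each transcript and group, in a table of tests and again in a tracking table, with no counts. The depth of the libraries is thus unknown, and their spread cannot be given. FPKM are shares of a library, so a change in total RNA per cell would not be seen. Errors are the intervals that the authors deposited beside the tracking values, at a level the file does not state.

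No transcript of the 7 loci passed the authors' test. Of 96 rows, 54 were tested and 0 had a deposited q-value of at most 0.05, against 0.255% of all 85852 tested transcripts. The smallest q-value among the 54 was 0.647 and the largest 0.991 in the authors' deposited table. Only the listed MSL2 transcript, 1 of 54, had a deposited unadjusted p-value of at most 0.05, against 2.39% of all tested transcripts, so the members' share was near the background at either threshold. Of the 54, 30 were higher and 24 lower in knockout cells, which puts 55.6% higher, against 52.1% of all tested transcripts. The 54 include 18 rows at the SIRT2 locus, which also spans a neighbouring gene, NFKBIB. Among tracking values, 39 tested member rows reached 1 FPKM in a group. The authors' intervals of knockout and wild type did not overlap for 0 of these 39, against 0.821% of all such transcripts, and for 24 of them the lower bound was 0 in each group.

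**Figure D1:**
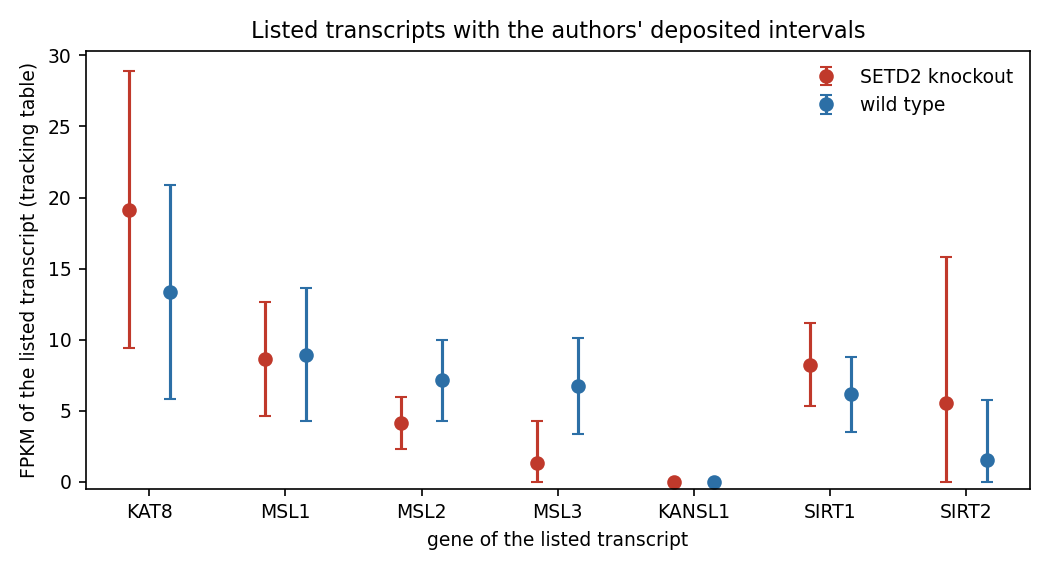
FPKM of the listed transcript of each gene (vertical axis, tracking table) in SETD2 knockout (red, left of each pair) and wild type cells (blue, right); points are the authors' group values and bars their deposited intervals. The intervals of the groups overlap for every gene, with KANSL1 at 0 or next to it, and MSL2 and MSL3 share the shortest stretch of the others.

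Among the listed transcripts that of the writer had the highest FPKM. The listed KAT8 transcript ENST00000219797, at chr16:31127075-31142714, stood at 18.8 FPKM in knockout cells and 13.7 FPKM in wild type cells, a 1.37-fold higher knockout value that did not pass (p = 0.181, q = 0.991 in the authors' deposited table). Its knockout interval was 9.38 to 28.9 FPKM and its wild type interval 5.79 to 20.9 FPKM, so the groups overlapped over most of their range. A second transcript of the locus, ENST00000539683, was nearly as high, with 16.3 FPKM in knockout cells and 12.0 FPKM in wild type cells. Of the 8 rows, 6 reached 1 FPKM in a group. Summed over all rows, the KAT8 locus held 45.3 FPKM in knockout cells and 39.2 FPKM in wild type cells, 1.15-fold higher in knockout cells, and 1.23-fold higher by the tracking values. The transcript with the largest difference on the log2(FPKM + 1) scale was ENST00000573144, at 3.03 FPKM in knockout cells and 4.70 FPKM in wild type cells, with p = 0.732 in the authors' deposited table. By tracking values it was nearly equal, at 4.52 FPKM in knockout cells and 4.59 FPKM in wild type cells, with lower bounds of 0 in each group.

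Of the listed transcripts of MSL subunits, that of MSL1 was closest to equal. Its listed transcript ENST00000398532, at chr17:38278551-38293042, stood at 9.53 FPKM in knockout cells and 9.17 FPKM in wild type cells, with p = 0.862 in the authors' deposited table. The intervals were 4.63 to 12.6 FPKM in knockout cells and 4.26 to 13.6 FPKM in wild type cells, nearly the same range. The highest of its 11 rows was ENST00000577454, at 14.4 FPKM in knockout cells and 13.8 FPKM in wild type cells. The row that differed most on the log2(FPKM + 1) scale, ENST00000581246, held 2.58 FPKM in knockout cells and 0.550 FPKM in wild type cells, with lower bounds of 0 in each group. The locus sum was 30.7 FPKM in knockout cells and 28.2 FPKM in wild type cells.

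The listed MSL2 transcript had the smallest p-value among all member rows. ENST00000309993, at chr3:135867764-135916083, stood at 4.20 FPKM in knockout cells and 7.30 FPKM in wild type cells, 1.74-fold lower in knockout cells, with p = 0.0045 and q = 0.647 in the authors' deposited table. It therefore did not pass, and the highest p-value among the 219 called transcripts was 0.0001. The tracking table gave 4.12 FPKM with an interval of 2.30 to 5.95 FPKM in knockout cells, against 7.13 FPKM with an interval of 4.29 to 9.96 FPKM in wild type cells. These intervals overlapped only between the wild type lower bound and the knockout upper bound. The other tested rows of the locus were higher in knockout cells or close to equal: ENST00000473093 held 9.10 FPKM in knockout cells and 7.27 FPKM in wild type cells, and ENST00000434835 held 2.38 FPKM in knockout cells and 2.25 FPKM in wild type cells. The locus sum in the test table was therefore close, at 15.7 FPKM in knockout cells and 16.8 FPKM in wild type cells. That is a log2 difference of -0.10. By tracking values the sum was 14.2 FPKM in knockout cells and 16.4 FPKM in wild type cells, a log2 difference of -0.21. The share of the listed transcript in the test-table sum was 26.8% in knockout cells and 43.4% in wild type cells. ENST00000473093, the higher row, had wide intervals of 0 to 18.97 FPKM in knockout cells and 0 to 18.4 FPKM in wild type cells. Its tracking values were closer than those of the test table, at 7.42 FPKM in knockout cells and 7.09 FPKM in wild type cells. RefSeq has CRIPTOP6 overlapping MSL2, and reads of these were not separated here.

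MSL2 lies on chromosome 3, where knockout values were lower over many genes. Over the 88 other expressed loci within 10 Mb of MSL2 the log2 fold (knockout over wild type) had a median of -0.32, and over 663 other loci of chromosome 3 one of -0.22, against 0.06 over all 12424 expressed loci, those whose sum reached 1 FPKM in a group. The MSL2 sum lay above 76.1% of the loci in that window, while its listed transcript, at a log2 fold of -0.80, lay below the window median. The part of the chromosome in the MSL2 values was not tested.

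The MSL3 locus showed the largest difference of a listed transcript. ENST00000312196, at chrX:11776278-11793870, stood at 1.81 FPKM in knockout cells and 6.92 FPKM in wild type cells, 3.82-fold lower in knockout cells, but with p = 0.179 and q = 0.991 in the authors' deposited table. Its tracking values were 1.29 FPKM in knockout cells and 6.75 FPKM in wild type cells. That is a log2 fold of -2.39, against -1.93 in the test table. The intervals were 0 to 4.24 FPKM in knockout cells and 3.36 to 10.1 FPKM in wild type cells, and overlapped. Some other rows of the locus lay the other way: ENST00000398527 held 3.98 FPKM in knockout cells and 1.68 FPKM in wild type cells, with p = 0.300 in the authors' deposited table. ENST00000337339 held 2.71 FPKM in knockout cells and 1.59 FPKM in wild type cells. Of the further tested rows, all at lower levels, some were higher in knockout cells and others lower, like the listed transcript. The rows apart from the listed transcript summed to 10.5 FPKM in knockout cells and 9.46 FPKM in wild type cells, so the whole locus differed less than its listed transcript. It held 12.3 FPKM in knockout cells and 16.4 FPKM in wild type cells, 1.33-fold lower in knockout cells in either table. The listed transcript was 14.7% of the locus in knockout cells and 42.2% in wild type cells, and by the tracking values 10.7% in knockout cells and 42.2% in wild type cells. The 52 other expressed loci within 10 Mb had a median log2 fold of 0.15, so the MSL3 sum, at -0.41, lay below its neighbours' median.

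**Figure D2:**
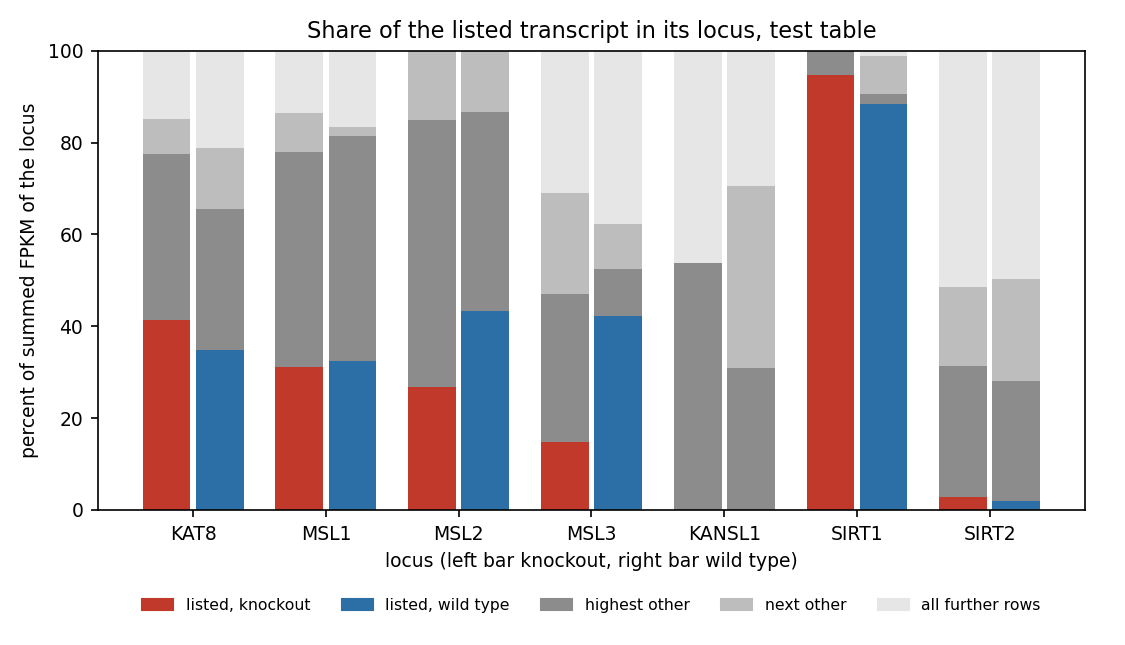
Share of the summed FPKM of each locus (percent, vertical axis, test table) held by the listed transcript (red in knockout, blue in wild type), by the next rows in level and by all further rows (greys); the left bar of each pair is the knockout. The listed MSL3 transcript holds 14.7% in knockout cells and 42.2% in wild type cells, and the listed MSL2 transcript 26.8% in knockout cells and 43.4% in wild type cells, while SIRT1 rests almost wholly on its listed transcript.

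KANSL1, the NSL scaffold, was barely measured. Its listed transcript ENST00000262419, at chr17:44107282-44302733, was listed at 0 in both groups of the test table and was not tested. Of the 24 rows of the locus 13 were at 0 in each group, 3 reached 1 FPKM in a group and 4 were tested. The highest, ENST00000576870, stood at 1.39 FPKM in knockout cells and 1.54 FPKM in wild type cells, with intervals of 0.289 to 2.26 FPKM in knockout cells and 0.473 to 2.54 FPKM in wild type cells. ENST00000576137 was listed at 0 in knockout cells and at 1.97 FPKM in wild type cells, where its interval was 0 to 5.66 FPKM. ENST00000575318 lay the other way, at 1.11 FPKM in knockout cells and 0.433 FPKM in wild type cells. Its intervals were 0.439 to 1.69 FPKM in knockout cells and 0 to 1.05 FPKM in wild type cells. The locus sum was 2.58 FPKM in knockout cells and 4.98 FPKM in wild type cells, 1.93-fold lower in knockout cells. Its tracking sum was 3.56 FPKM in knockout cells and 4.86 FPKM in wild type cells, 1.36-fold lower, so the size of the difference rests on which knockout value is used. RefSeq places the lncRNA gene KANSL1-AS1 inside KANSL1 and has LOC107985027 overlapping it. Strand-aware counting is not stated in the sources used here, so reads of these genes cannot be told apart.

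Of the erasers, SIRT1 gave the clearest measurement. Its listed transcript ENST00000212015, at chr10:69644427-69678147, held 94.7% of the locus in knockout cells and 88.5% in wild type cells. It stood at 8.56 FPKM in knockout cells and 6.33 FPKM in wild type cells, 1.35-fold higher in knockout cells, and did not pass (p = 0.0911, q = 0.991 in the authors' deposited table). Its intervals were 5.33 to 11.1 FPKM in knockout cells and 3.53 to 8.81 FPKM in wild type cells, the narrowest relative to its level of any listed transcript in knockout cells, and overlapped. A further row, ENST00000406900, was listed at 0 in knockout cells and at 0.595 FPKM in wild type cells. The locus sum was 9.04 FPKM in knockout cells and 7.15 FPKM in wild type cells, 1.26-fold higher in knockout cells, and 1.22-fold higher by the tracking values. The 91 other expressed loci within 10 Mb had a median of 0.16.

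SIRT2 cannot be read from its locus sum, because the locus at chr19:39369197-39399533 spans more than SIRT2. It is 30337 bases long, whereas RefSeq (GRCh38.p14) gives 21064 bases for SIRT2 and 30335 bases for SIRT2 and the neighbouring gene NFKBIB together, an inhibitor of NF-kappa-B. The genes start 48 bases apart on opposite strands. The start region of SIRT2 from RefSeq (GRCh38.p14, chr19:38899569-38899868, minus strand, from 250 bases before to 50 bases after the start) is shown because it is where the genes join. Capitals mark the 147 bases that the corresponding NFKBIB region, read from the other strand, also covers.
SIRT2 start region: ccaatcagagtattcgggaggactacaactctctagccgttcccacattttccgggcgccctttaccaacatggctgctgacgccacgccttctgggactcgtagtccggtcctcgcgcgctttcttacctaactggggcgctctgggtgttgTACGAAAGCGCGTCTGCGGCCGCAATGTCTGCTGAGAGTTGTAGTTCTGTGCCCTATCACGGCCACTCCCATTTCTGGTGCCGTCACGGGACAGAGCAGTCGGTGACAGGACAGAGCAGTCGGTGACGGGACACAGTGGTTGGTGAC

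The listed SIRT2 transcript ENST00000249396 was a minor row of that locus, with 2.89% of the sum in knockout cells and 1.91% in wild type cells. It stood at 2.56 FPKM in knockout cells and 1.58 FPKM in wild type cells, with p = 0.721 in the authors' deposited table. Its tracking values were 5.56 FPKM (interval 0 to 15.8 FPKM) in knockout cells, against 1.55 FPKM (interval 0 to 5.76 FPKM) in wild type cells, so its fold ran from 1.61 in the test table to 3.59 in the tracking table. The other 23 rows were not assigned to either gene. The highest was ENST00000313582, at 25.3 FPKM in knockout cells and 21.8 FPKM in wild type cells. The row that differed most was ENST00000392079, at 0.0811 FPKM in knockout cells and 8.10 FPKM in wild type cells in the test table, with p = 0.0918 in the authors' deposited table. Its tracking values were 2.04 FPKM in knockout cells and 7.82 FPKM in wild type cells, with lower bounds of 0 in each group. The locus sum was 88.5 FPKM in knockout cells and 82.8 FPKM in wild type cells, 1.07-fold higher in knockout cells, and 1.28-fold higher in the tracking table.

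**Figure D3:**
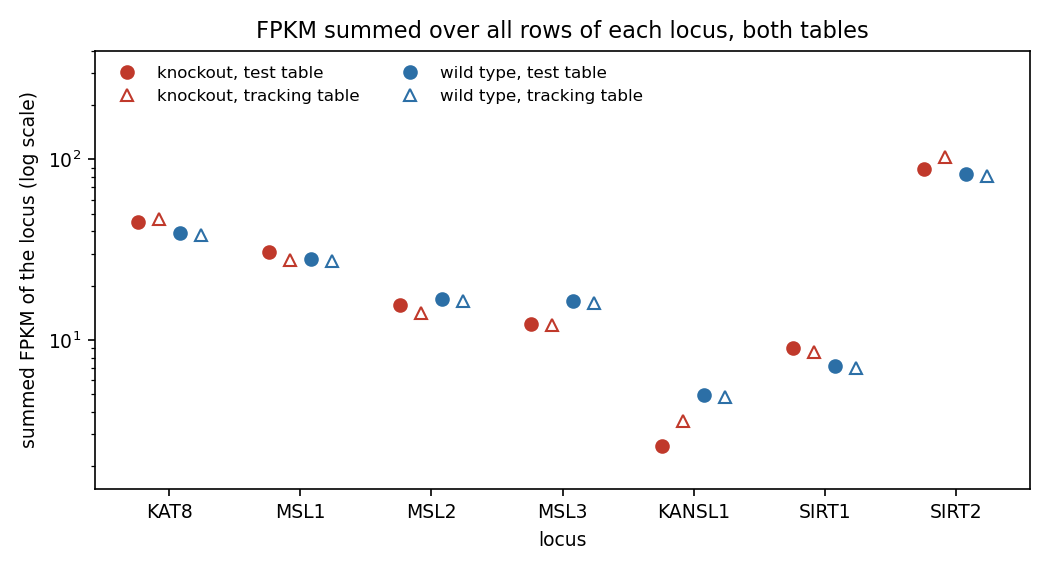
FPKM summed over all rows of each locus (vertical axis, log scale) in knockout (red, left) and wild type cells (blue, right), with filled circles for the test table and open triangles for the tracking table. The wild type values of the tables lie close together at every locus, while the knockout values differ most at KANSL1 (2.58 FPKM in the test table and 3.56 FPKM in the tracking table).

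By tracking values, the order of the listed transcripts in knockout cells was KAT8, MSL1, SIRT1, SIRT2, MSL2 and MSL3, and in wild type cells KAT8, MSL1, MSL2, MSL3, SIRT1 and SIRT2. In the test table MSL2 came before SIRT2 in knockout cells. The listed KANSL1 transcript, at or next to 0 and not tested, was left out, since an exact 0 of 1 row can be a failed estimate and other rows of that locus held more. In each group the intervals of all 5 neighbouring pairs in that order overlapped. Over all 15 pairs of genes, 4 pairs had intervals apart in knockout cells and 1 in wild type cells. KAT8 was apart from MSL2 and MSL3 in knockout cells and from SIRT2 in wild type cells, and MSL3 was apart from MSL1 and SIRT1 in knockout cells.

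By locus sums, 4 of the 7 loci were higher and 3 lower in knockout cells, with a median log2 fold of 0.09, against 0.06 over all 12424 expressed loci. That median of the 7 was the value of the locus that SIRT2 shares with NFKBIB. By tracking values the median of the 7 was 0.01, against 0.08 over all loci. Only the KANSL1 sum was at least 1.5-fold lower in knockout cells, 1 of 7, against 11.1% of all loci, and 0 of 7 were at least 1.5-fold higher, against 13.1%. By tracking values, 0 of 7 were past that fold in either direction. The sums of KAT8, MSL1 and SIRT1 and of the locus that SIRT2 shares with NFKBIB were above the wild type and those of MSL2, MSL3 and KANSL1 below it, in each table, with no test of these differences. Relative to the median of all loci, the MSL1 sum lay above in the test table (0.12 against 0.06) and below by tracking values (0.01 against 0.08).

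**Figure D4:**
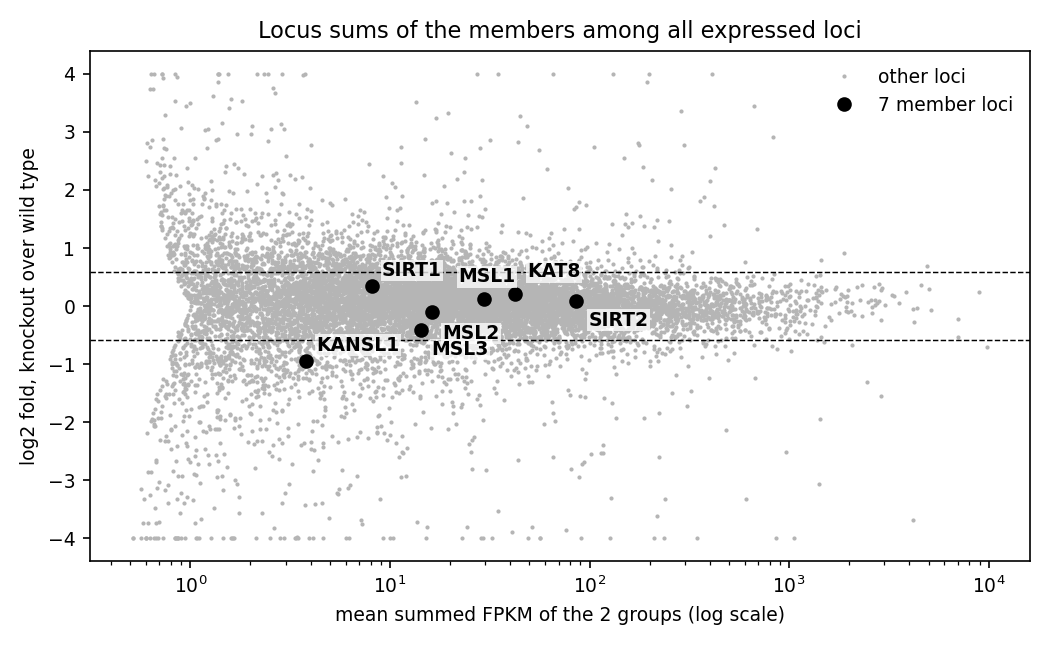
Log2 fold of the locus sum, knockout over wild type (vertical axis, held within ±4), against the mean of the group sums (horizontal axis, FPKM, log scale) for all expressed loci (grey) and the 7 member loci (black, named). Dashed lines mark 1.5-fold; KANSL1 alone lies past a line.

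The values of the neighbouring loci were given beside each member because knockout values differed between chromosome regions. The median log2 fold within 10 Mb was 0.07 around KAT8, 0.01 around MSL1 and around KANSL1, and -0.04 around SIRT2, against 0.06 over all loci. The windows around MSL1 and KANSL1 overlapped, and each held the locus of the other gene. The KAT8 sum lay above 70.1% of its neighbours, that of MSL1 above 60.9% and that of SIRT1 above 71.4%. The sum of the locus that SIRT2 shares with NFKBIB lay above 60.6% of its neighbours. The MSL3 sum lay above 23.1% and the KANSL1 sum above 8.46% of theirs.

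**Figure D5:**
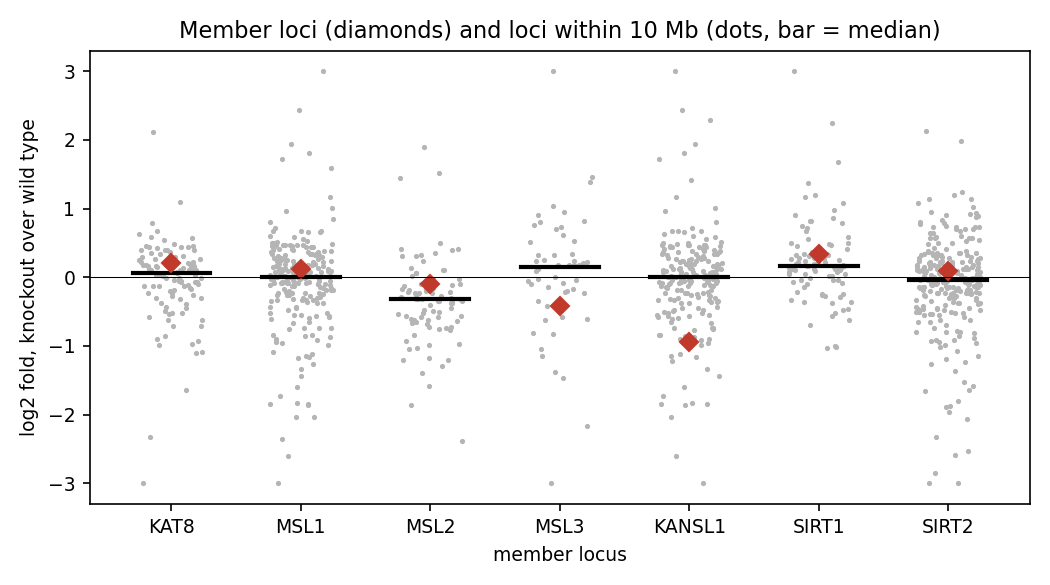
Log2 fold of the locus sum, knockout over wild type (vertical axis, held within ±3), of each member locus (red diamonds) and of the other expressed loci within 10 Mb of it (grey dots, with their median as a black bar). MSL2 sits at -0.10 above a median of -0.32, and MSL3 at -0.41 below a median of 0.15.

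Called transcripts at like levels were set beside the listed ones. Of the 219, 67 had a mean of 4 to 20 FPKM and a value above 0 in each group, and their folds started at 1.70 with a median of 2.74. The listed MSL2 and MSL3 transcripts, at 1.74-fold and 3.82-fold, lay past that smallest fold without a call. By tracking values, the upper bound of the listed MSL3 transcript in knockout cells lay 229% above its value and that of SIRT2 184%. Those of KAT8, MSL1, MSL2 and SIRT1 lay 35.3% to 51.0% above. The missing calls do not show that differences are absent.

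Values of 0 were counted apart. At 0 in each group were 27 of the 96 rows, at 0 in knockout cells alone 14 (14.6%, against 14.8% of all transcripts) and at 0 in wild type cells alone 7 (7.29%, against 3.67%). Of the member rows at 0 in knockout cells in the test table, 7 were above 0 in the tracking table, and 2 of those at 0 in wild type cells were. Over 39 member rows of at least 0.5 FPKM in knockout cells the tracking value was 0.652 to 2.17 times the test-table value, while over 44 such rows in wild type cells it was 0.965 to 0.988 times. The number of libraries behind each column was not analysed here.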

How the data were processed

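The authors deposited FPKM values, 1 per transcript and group, with a lower and an upper bound, per the file headers. Their test table holds the same 2 groups and, also deposited by the authors, a p-value and q-value, a test score and a log2 fold whose sign runs the other way (wild type on top). TopHat, Cuffdiff and Bowtie 1.1.2 and build hg19 are named, without role or order, in the submitters' processing notes. No label or header names the annotation. The table named for transcripts was identical to that named for genes and was not used.

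Folds here are knockout over wild type without a pseudocount, computed from test-table values except where tracking values are named. Rows were summed per locus, leaving out loci with a failed estimate, and a locus on chromosomes 1 to 22 or X counted as expressed when its sum reached 1 FPKM in a group and was above 0 in each. Starts have 1 added, since files count from 0. No test was run here: the authors' q-value at 0.05, adjusted over their whole table, was used. Members, lists and alternatives were chosen with earlier results of these data known. Besides the listed transcripts, the text names in each locus the highest row, the row with the largest change on log2(FPKM + 1) and rows with p at most 0.05. ENST00000539683, ENST00000448516, ENST00000434835, ENST00000398527, ENST00000337339 and ENST00000575318 were named after their values were seen. A list of 20 other acetylation genes was not analysed, since 0 IDs matched a gene name. The locus sums were checked on simulated data. RefSeq names and lengths are from GRCh38.p14. Python 3.11.15, pandas 2.3.3, numpy 2.4.6 and matplotlib 3.10.9 were used.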

Additional observations from a re-analysis of the deposited data

How the results depend on the processing

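Of 84 alternatives over 35 results, 74 kept the value within the tolerance set (1.5-fold for folds with the same sign, 10 percentage points for shares, 0.1 on the log2 scale for medians), and 10 did not. That tolerance counted the KANSL1 sum as kept, though it was 1.93-fold lower in the test table and 1.36-fold lower by tracking values. The count of passing rows, 0, became 1 at an unadjusted p of 0.05 and was 0 at a q of 0.1. Among rows of at least 1 FPKM, a part of the same rows, it could only be 0. The listed transcript alone, in place of the locus sum, gave log2 folds of -0.80 for MSL2, -1.93 for MSL3 and 0.69 for SIRT2. In the tracking table the log2 fold of the listed transcript was -0.053 for MSL1 and 1.84 for SIRT2, and the median within 10 Mb was 0.045 around MSL3 and 0.10 around SIRT2. Within 5 Mb that median was -0.22 around MSL2 and -0.029 around MSL3. For these values the cause was not tested. Fold by listed transcript alone could not be given for KANSL1, at 0 in each group. No paired analysis was possible because the files hold 1 value per group, which also prevents leaving out a library. Depth is unknown, and the width of the authors' intervals limits the rows whose lower bound is 0.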

Other observations

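Within 500 kb of the KANSL1 locus on chromosome 17 lay 14 other loci, of which 5 reached 1 FPKM in a group, 35.7% against 35.4% of 35665 loci in the whole table, so the share of low neighbours was near the background. The highest held 29.3 FPKM in knockout cells and 21.6 FPKM in wild type cells, and the next highest value was 1.78 FPKM in knockout cells and 2.80 FPKM in wild type cells. Within 1 Mb there were 28 other loci, and the highest of these held 626.9 FPKM in knockout cells and 452.8 FPKM in wild type cells.

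At SIRT1 the rows apart from the listed transcript summed to 0.475 FPKM in knockout cells and 0.824 FPKM in wild type cells, so the locus and its listed transcript gave nearly the same value. At KAT8 those rows summed to 26.5 FPKM in knockout cells and 25.5 FPKM in wild type cells. Within them ENST00000539683 was higher in knockout cells, at 16.3 FPKM against 12.0 FPKM in wild type cells. In the test table ENST00000448516 was lower, at 3.50 FPKM in knockout cells against 5.21 FPKM in wild type cells. Its p-value was 0.549 in the authors' deposited table. By tracking values it lay the other way, at 6.23 FPKM in knockout cells and 5.09 FPKM in wild type cells, with lower bounds of 0 in each group.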
